A study of Homo sapiens with 8 samples.

Results

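The p53 pathway target genes described here are MDM2, PPM1D, BBC3, BAX, FAS, TNFRSF10B, TP53INP1, SESN1, BTG2 and GDF15, measured in HuCCT1, an established human cell line of intrahepatic cholangiocarcinoma, a cancer of the bile ducts. They were chosen by name with earlier results of these data known, so counts of members called are a description only. All 10 were among the 34809 gene names of the array and among the 20464 genes that were bright enough to be tested. RNA was hybridised to 8 single-colour Agilent arrays, with 2 arrays for each of 4 vectors. The control cells carried shControl or shNontarget, and the knockdown cells carried shBEX2-1 or shBEX2-2, a short hairpin RNA against BEX2, a small X-linked gene that the study examined for a role in dormant cancer stem cells. According to the methods the hairpins were delivered by a retroviral vector, and the target sequences of the BEX2 hairpins cover nearly the same stretch on opposite strands. The labels name no drug, irradiation or other treatment in any group. The sources do not say if both arrays of each vector stem from separate cultures, and p-values then measure only the spread between these arrays, which may be technical.

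The transcription factor p53 is stabilised by DNA damage and other stress and switches on genes that stop the cell cycle, repair DNA, trigger apoptosis or feed back on p53 itself. MDM2 marks p53 for degradation and is also one of its targets, which closes a feedback loop. Several of the genes described here also answer to other stress signals, such as the ATF4 and DDIT3 branch of the integrated stress response.

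The level of a gene is given as log2 of its processed intensity minus the 75th percentile of its array, so that 0 is the 75th percentile and a difference of 1 is a doubling. The 8 arrays shared 1 slide and 1 scan. Slide row 1 held the control cells and slide row 2 the knockdown cells, so the row and the group cannot be told apart. Both shNontarget arrays stood apart from each other, since 34.9% of the genes tested differed by more than 1 log2 unit between them, compared with 0.562% to 1.76% for the pairs of the other vectors. In the model of the 4 vectors, leaving out the first or the second of them raised the genes called from 1426 to 10821 or 10756 for shBEX2-1 and from 1977 to 10538 or 11151 for shBEX2-2. Members whose call against the controls changed in these fits are given with those values, to be read against these counts. All 7 biliary and epithelial markers were tested, KRT7, KRT19 and EPCAM among them, and KRT8 was higher in the knockdown cells (1.02, limma adjusted p = 0.0165). Of the 12 markers of fibroblasts, leukocytes, endothelial cells and hepatocytes, 6 were tested (COL1A1, PTPRC, CD14, VWF, CDH5 and APOA1), and the leukocyte marker CD14 was higher (0.54, adjusted p = 0.0295). ALB, APOB, COL3A1 and PECAM1 were well above background on 0 arrays, PDGFRB on 1 and CD3E on 3. The part of these markers in the results was not tested.

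The hairpin target was lower in the knockdown cells. BEX2 lay at -3.36 and -3.91 with shControl, at -2.70 and -3.77 with shNontarget, at -5.21 and -5.54 with shBEX2-1 and at -4.92 and -4.60 with shBEX2-2. All 4 knockdown arrays were below all 4 control arrays, and both shBEX2-1 arrays were not well above background. The fitted log2 fold change was -1.63 (SE 0.32, n = 4 and 4, limma adjusted p = 0.0116). With normexp background correction it was -0.45 and with only the shNontarget arrays as control -1.83, neither of them called, and it was called under the other 19 of 21 alternatives.

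Promoter sequences show where general promoter elements and p53 motifs lie in the members. RefSeq promoters on GRCh38.p14, from 250 bases before to 50 bases after the start, were matched by symbol for 8 members, all but TP53INP1 and TNFRSF10B. Both strands were searched for the p53 half-site RRRCWWGYYY, with no mismatch allowed. R stands for A or G, W for A or T and Y for C or T. The other motifs were TGATGNAA (the core of elements bound by ATF4 with C/EBP factors), the GC box GGGCGG and TATAAA. None of these motifs is part of another. GDF15, the member with the largest change, is shown over the 130 bases before its start, BTG2, which was called higher in 1 subline, over 90 bases, and SESN1, the single one with a half-site, over 30 bases. Motif letters are in capitals and the rest is in lower case, 5′ to 3′ on the strand of the gene.
GDF15, chr19:18386028-18386157, plus strand: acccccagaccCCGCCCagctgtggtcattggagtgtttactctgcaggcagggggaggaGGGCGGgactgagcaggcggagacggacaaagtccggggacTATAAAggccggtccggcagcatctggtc
BTG2, chr1:203305344-203305433, plus strand: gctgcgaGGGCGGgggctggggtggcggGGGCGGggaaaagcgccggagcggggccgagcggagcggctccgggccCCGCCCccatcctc
SESN1, chr6:109009019-109009048, minus strand: cattgtcgtctGGACAAGTCTccacaagtc
The capitals in GDF15 are 2 GC boxes, 1 of them on the opposite strand, and a TATAAA whose first base is at -29. In BTG2 they are 3 GC boxes, and in SESN1 they are the p53 half-site. Among 35116 promoters of this length, 6.63% held a half-site, 45% a GC box, 11.5% a TATAAA and 3.62% TGATGNAA, which none of the 8 held. A GC box occurred in 7 of the 8, BBC3 being the exception. The window leaves out introns and distant sites, half-sites with a mismatch were not counted, and no motif here was tested for binding.

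In the comparison of 4 knockdown with 4 control arrays, 3 of the 10 members were called, that is, had an adjusted p under 0.05 in limma, and all 3 of them fell. These were GDF15, TP53INP1 and BBC3, and the other 7 members were not called. Of all genes tested, 12.9% were called, 6.68% as higher and 6.25% as lower. The knockdown arrays all lay beyond the control arrays for GDF15 and TP53INP1 below and for BTG2 above, 3 of 10 members, compared with 22.1% of all genes. The median log2 fold change was -0.06 over the members and 0.03 over all genes tested, and 4 members had a positive and 6 a negative fold change. These are bulk samples, in which fewer cells with a transcript and less transcript per cell cannot be told apart.

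**Figure D1:**
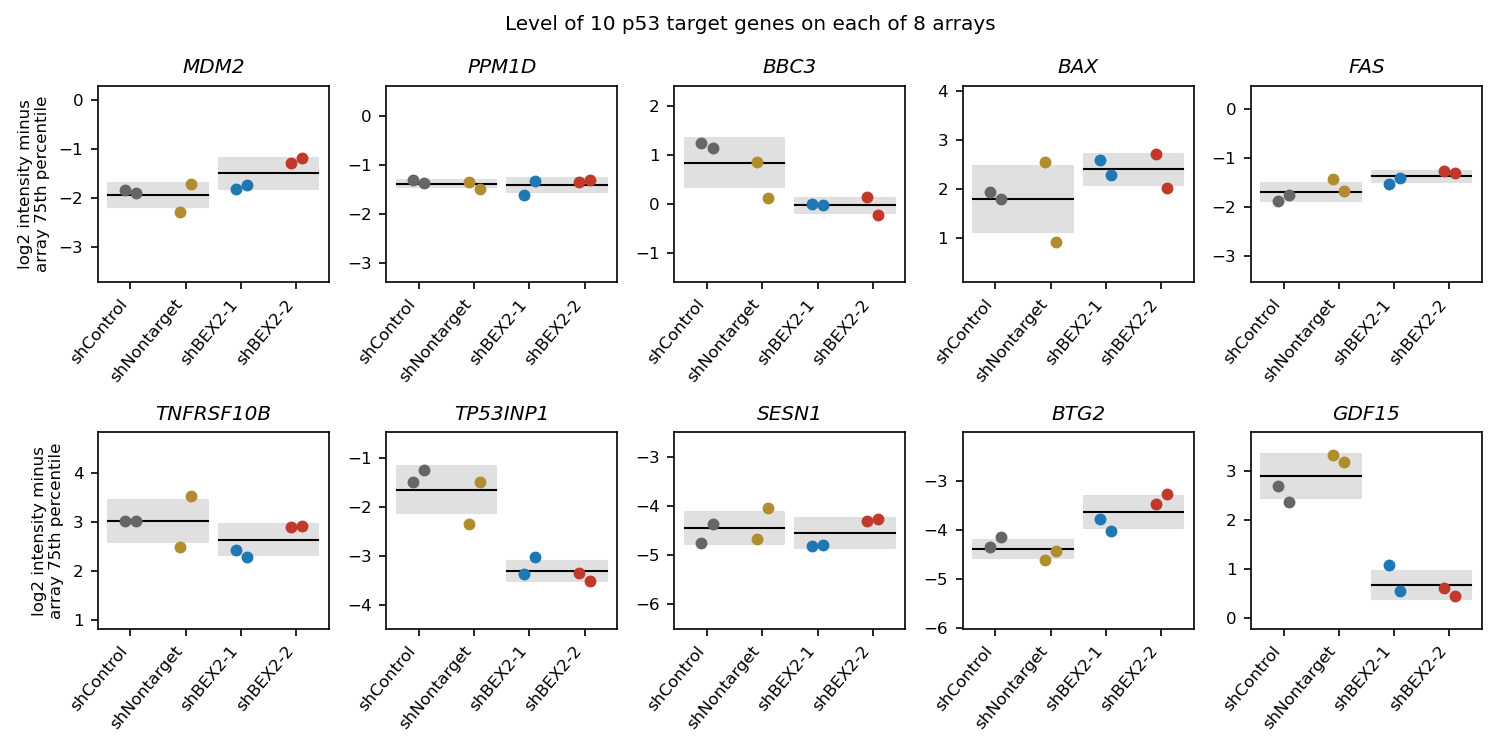
Levels of the 10 members on each array, as log2 intensity minus the 75th percentile of the array, by vector, with 2 points per vector. Black lines are means and grey bands SDs of the 4 control and the 4 knockdown arrays, and each panel spans 4 log2 units. GDF15 and TP53INP1 were lower on all 4 knockdown arrays, BTG2 was higher, and BAX and TNFRSF10B spread widely between the shNontarget arrays.

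The feedback members did not pass the test of 4 against 4 arrays in either direction. MDM2, the ubiquitin ligase of p53, lay at -1.83 and -1.89 with shControl, at -2.28 and -1.71 with shNontarget, at -1.80 and -1.72 with shBEX2-1, and at -1.27 and -1.19 with shBEX2-2. The shBEX2-2 arrays stood above the other 6, while the shBEX2-1 arrays lay within the range of the controls. Its log2 fold change was 0.43 (SE 0.20, limma adjusted p = 0.189) for all knockdown arrays, 0.17 (SE 0.19, adjusted p = 0.672) for shBEX2-1 and 0.70 (SE 0.19, adjusted p = 0.0729) for shBEX2-2. For shBEX2-2 MDM2 was called with quantile normalization (0.71, limma adjusted p = 0.0296) and without the first (0.56, adjusted p = 0.0015) or the second shNontarget array (0.84, adjusted p = 0.000213). For shBEX2-1 it was called without the second (0.31, adjusted p = 0.0239). The other 2 MDM2 probes gave 0.34 and 0.31, also with the highest levels in shBEX2-2 cells.

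PPM1D, the phosphatase WIP1 that removes activating phosphates from p53 and its kinases, had levels between -1.61 and -1.30 on all arrays, a log2 fold change of -0.02 (SE 0.13, limma adjusted p = 0.937). Its second, dimmer probe disagreed. That probe lay at -1.99, -2.17, -2.50 and -2.28 on the control arrays and at -1.64, -1.67, -1.59 and -1.65 on the knockdown arrays, without overlap. Its log2 fold change was 0.60 (SE 0.14, adjusted p = 0.0256 in a limma fit over all kept probes), so the direction of PPM1D depends on the probe.

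Among the members of the mitochondrial route, BBC3 was lower in the knockdown cells. BBC3 encodes PUMA, a BH3-only protein that neutralises anti-apoptotic BCL2 proteins. Its levels were 1.24 and 1.14 with shControl, 0.85 and 0.13 with shNontarget, 0.01 and -0.03 with shBEX2-1 and 0.13 and -0.23 with shBEX2-2. Both shControl arrays and the first shNontarget array were high, and the second shNontarget array lay at the level of the highest knockdown array. The log2 fold change was -0.87 (SE 0.23, limma adjusted p = 0.0414), a level 1.83-fold lower. The call was lost without either shControl array (-0.74 and -0.77, adjusted p = 0.115 and 0.119) and without any 1 of the 4 knockdown arrays, for which fold changes lay between -0.92 and -0.80. Against shControl alone the log2 fold change was -1.22 and against shNontarget alone -0.52, of which only the first was called. In the sublines BBC3 was called without either shNontarget array, at -0.67 and -1.03 for shBEX2-1 and at -0.71 and -1.07 for shBEX2-2, and for shBEX2-2 also with quantile normalization (-0.90, limma adjusted p = 0.0468). BBC3 also differed between the control vectors in the unadjusted limma test but not in the adjusted one (0.70 lower with shNontarget, SE 0.26, adjusted p = 0.593).

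BAX, the pore-forming protein of the outer mitochondrial membrane, was not called. It lay at 1.94 and 1.78 with shControl and between 2.01 and 2.71 on the knockdown arrays, but at 2.54 and 0.91 with shNontarget. The 4 knockdown arrays stood above both shControl arrays and between the shNontarget arrays or just past the higher one. The log2 fold change was 0.61 (SE 0.32, limma adjusted p = 0.253). Without the first shNontarget array it was 0.86 and was called (adjusted p = 0.0478), and without the second it was 0.31 (adjusted p = 0.354). Without that first array BAX was also called in shBEX2-1 (1.06, adjusted p = 0.00301) and in shBEX2-2 (0.98, adjusted p = 0.00417). A second BAX probe gave 0.36.

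The death receptors were not called in the comparison of 4 with 4 arrays. FAS, the receptor of FAS ligand, ranged from -1.88 to -1.44 in control and from -1.53 to -1.26 in knockdown cells, with overlap, and had a log2 fold change of 0.31 (SE 0.14, limma adjusted p = 0.192). Its other 2 probes gave 0.32 and 0.21. Against shControl alone the FAS value was 0.44 and was called (adjusted p = 0.0228). In the sublines FAS was 0.22 (SE 0.14, adjusted p = 0.421) for shBEX2-1 and 0.40 (SE 0.14, adjusted p = 0.139) for shBEX2-2. It was called in shBEX2-2 without the first (0.46, adjusted p = 0.00442) or the second shNontarget array (0.34, adjusted p = 0.0155), and in shBEX2-1 without the first (0.28, adjusted p = 0.0397).

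TNFRSF10B encodes DR5, a receptor of the ligand TRAIL. It lay at 3.02 and 3.01 with shControl, at 2.49 and 3.54 with shNontarget, at 2.44 and 2.29 with shBEX2-1 and at 2.90 and 2.93 with shBEX2-2. All 4 knockdown arrays were below both shControl arrays, and the shBEX2-1 arrays were lowest of all 8. This gave a log2 fold change of -0.37 (SE 0.24, limma adjusted p = 0.358), with -0.65 for shBEX2-1 (SE 0.28, adjusted p = 0.242) and -0.10 for shBEX2-2 (SE 0.28, adjusted p = 0.885). For shBEX2-1 TNFRSF10B was called without the first (-0.91, adjusted p = 5.54e-05) or the second shNontarget array (-0.39, adjusted p = 0.00272). For shBEX2-2 it was called without the first (-0.36, adjusted p = 0.00343), and without the second it was 0.16.

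GDF15 fell most among the members. GDF15 encodes a secreted stress cytokine of the TGF-beta superfamily. Its levels were 2.69 and 2.37 with shControl, 3.33 and 3.19 with shNontarget, 1.08 and 0.56 with shBEX2-1, and 0.61 and 0.45 with shBEX2-2. Every knockdown array was more than 1 log2 unit below every control array, and among the controls shNontarget was the higher. The mean was 2.90 ± 0.44 (SD, n = 4) in control and 0.67 ± 0.28 (SD, n = 4) in knockdown cells. The log2 fold change was -2.22 (SE 0.23, limma adjusted p = 0.00118), a level 4.66-fold lower. Against shControl alone it was -1.86 and against shNontarget alone -2.58, and GDF15 was called with either. In each subline it also passed the test, with -2.08 for shBEX2-1 (SE 0.19, adjusted p = 0.007) and -2.37 for shBEX2-2 (SE 0.19, adjusted p = 0.00316). The shBEX2-1 call was lost without either shControl array (limma adjusted p = 0.0597 and 0.0653) or either shBEX2-1 array (adjusted p = 0.13 and 0.0897), with log2 fold changes from -2.34 to -1.82, and the shBEX2-2 call without either shBEX2-2 array (-2.45 and -2.29).

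TP53INP1, a nuclear and autophagosomal protein that promotes arrest and cell death together with p53, fell next most. It lay at -1.50 and -1.26 with shControl, at -2.36 and -1.49 with shNontarget, at -3.37 and -3.03 with shBEX2-1 and at -3.34 and -3.52 with shBEX2-2. The groups did not overlap, and the first shNontarget array was the lowest control. The log2 fold change was -1.67 (SE 0.24, limma adjusted p = 0.00367), a level 3.17-fold lower, with -1.55 for shBEX2-1 (SE 0.27, adjusted p = 0.0278) and -1.78 for shBEX2-2 (SE 0.27, adjusted p = 0.0141). The probe was dim in knockdown cells, with intensities before scaling of 42.6, 62.9, 60.8 and 55.2, compared with 146 to 351 in control cells. With normexp background correction the log2 fold change was -0.94 and was still called, and against shNontarget alone it was -1.39 with an adjusted p of 0.069. Among the fits that left out 1 array, the shBEX2-1 call held without either shNontarget array. It was lost without any 1 of the other 6 (-1.72 to -1.38). The shBEX2-2 call was lost without either shControl (-1.84 and -1.72) or shBEX2-2 array (-1.87 and -1.69). With the mean of the TP53INP1 probes neither subline was called (-1.36 and -1.21, adjusted p = 0.114 and 0.136). A second, dimmer TP53INP1 probe, well above background on 4 arrays, was not called. It gave -0.91 (SE 0.44, adjusted p = 0.216 in a limma fit over all kept probes).

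BTG2, an antiproliferative protein that slows entry into S phase and promotes mRNA decay, stood higher. Its levels were -4.35 and -4.15 with shControl, -4.60 and -4.43 with shNontarget, -3.77 and -4.02 with shBEX2-1 and -3.47 and -3.27 with shBEX2-2. The groups did not overlap and shBEX2-2 was the higher subline. Its fitted log2 fold change was 0.75 (SE 0.22, limma adjusted p = 0.055), just short of the threshold. For shBEX2-2 it was 1.01 (SE 0.20, adjusted p = 0.0314) and was called, but the call was lost with the replicate number as a block (adjusted p = 0.0547), with normexp, with no filter on dim probes and without any 1 array of shControl, shBEX2-1 or shBEX2-2 (0.91 to 1.11). For shBEX2-1 it was 0.49 (SE 0.20, adjusted p = 0.227), and it was called there with normexp (0.42, adjusted p = 0.049) and without the second shNontarget array (0.53, adjusted p = 0.0388). With normexp the BTG2 call thus stood in shBEX2-1 and not in shBEX2-2. The probe was dim. Before scaling, the BTG2 intensities were 35.8, 47.4, 30.8 and 30.9 on the control arrays, 32.3 and 31.7 with shBEX2-1 and 55.8 and 65.6 with shBEX2-2, so that shBEX2-1 stood apart from the controls on the scaled values only. The 75th percentiles used for scaling were 441 and 514 with shBEX2-1 and 667 to 838 on the control arrays. With normexp background correction the log2 fold change of BTG2 was 0.42 and was called (adjusted p = 0.0195).

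SESN1, a sestrin that restrains mTORC1 signalling, was near background. It ranged from -4.74 to -4.03 in control and from -4.82 to -4.25 in knockdown cells, with 7 of 8 arrays well above background. The groups overlapped, with a log2 fold change of -0.09 (SE 0.25, limma adjusted p = 0.85).

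**Figure D2:**
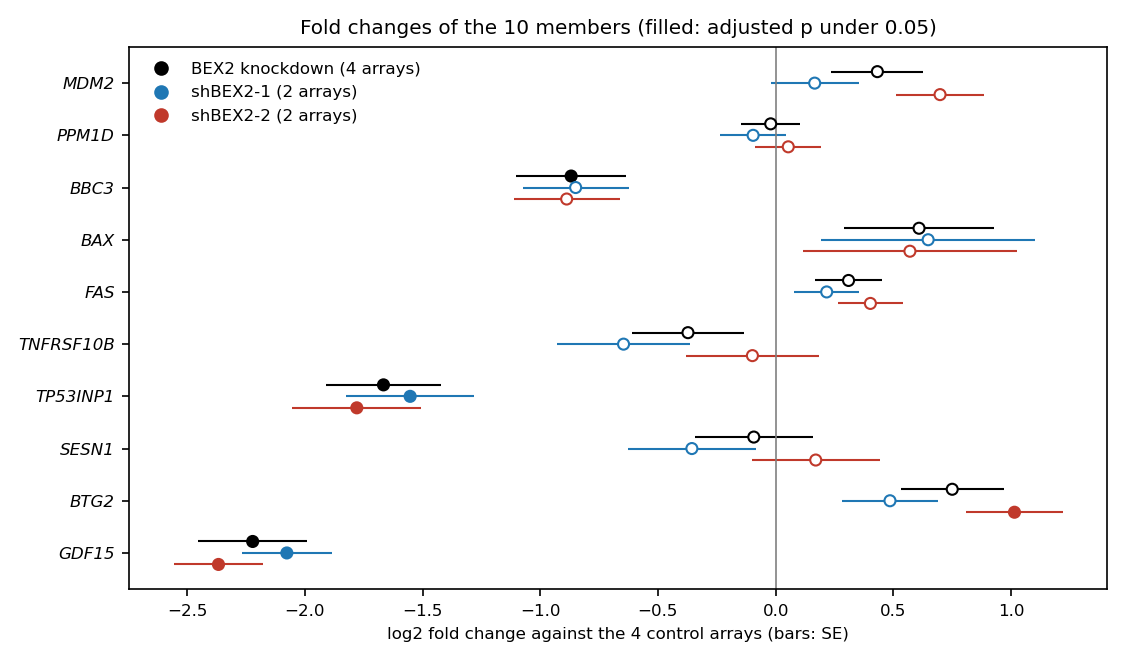
Log2 fold change of each member against the 4 control arrays, for all 4 knockdown arrays (black), shBEX2-1 (blue) and shBEX2-2 (red). Bars are SEs of the limma fits and filled points have an adjusted p under 0.05. GDF15 and TP53INP1 passed in each comparison, BBC3 only with all 4 knockdown arrays and BTG2 only in shBEX2-2.

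When the 4 vectors were compared in 1 model, shBEX2-1 against both controls called 2 members, GDF15 and TP53INP1, against a background of 6.97% of all genes. For shBEX2-2 the called members were GDF15, TP53INP1 and BTG2, against 9.66%. Both comparisons share the control arrays. The moderated F-test over the 4 vectors called GDF15 (limma adjusted p = 0.00854) and TP53INP1 (adjusted p = 0.032), against 6.76% of all genes. BBC3 had adjusted p-values of 0.0816 in shBEX2-1 and 0.0634 in shBEX2-2.

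Between the control vectors limma called no gene (0%), although 1567 genes had an unadjusted p under 0.05, among them GDF15 (0.73 higher with shNontarget, SE 0.22, limma adjusted p = 0.501) and BBC3. Rank product and the methods' t-test were run on the 4 against 4 comparison only. Between the sublines 2 genes were called (0.00977%), neither a member, and 1492 had an unadjusted p under 0.05. MDM2 was the member among them, 0.53 higher with shBEX2-2 (SE 0.22, limma adjusted p = 0.67). Differences of like size were those of TNFRSF10B, at 0.55, BTG2, at 0.53, and SESN1, at 0.53, all higher with shBEX2-2 and not called.

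The counts in the 4-vector model changed most on leaving out a shNontarget array. In both sublines the number of members called then rose along with the number of all genes called, and is not a result about the members. The log2 differences of MDM2 and TNFRSF10B between the sublines stayed at 0.53 and 0.55. In these fits the remaining shNontarget array is assumed to vary like the arrays of the other vectors.

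The mRNA of CDKN1A, which encodes the cyclin-dependent kinase inhibitor p21 and is the classical arrest target, lay at -2.95 and -3.06 with shControl, -2.43 and -2.56 with shNontarget, -3.70 and -3.68 with shBEX2-1 and -3.20 and -3.39 with shBEX2-2. The groups did not overlap, with a log2 fold change of -0.74 (SE 0.21, limma adjusted p = 0.0452). This call was narrow. It was kept on leaving out the first shNontarget array (-0.64, adjusted p = 0.0459) and lost on leaving out any other single array, where values lay between -0.84 and -0.67, and normexp background correction gave -0.22. MDM4, the p53-binding paralog of MDM2, was not called (-0.15, SE 0.29, limma adjusted p = 0.796).

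Of 19 regulators of p53, 17 were tested, 2 of them called higher and 2 lower, with a median log2 fold change of -0.15. Over all genes tested, 6.68% were called higher and 6.25% lower. The checkpoint kinases CHEK1 (1.22, SE 0.21, limma adjusted p = 0.00687) and CHEK2 (0.76, adjusted p = 0.0491) were higher. The deubiquitinase USP7 (-0.79, adjusted p = 0.0191) and the ubiquitin ligase RCHY1 (-0.66, adjusted p = 0.0153) were lower. Leaving out single arrays in turn kept CHEK1 in all 8 cases, and CHEK2 in 2 of 8 and USP7 in 4 of 8.

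Of 47 further p53 targets 41 were tested, 5 called higher and 7 lower, and their median was -0.05. This made 29.3% called, compared with 12.9% of all genes. Without either shControl array or either shBEX2-2 array 2 were called higher and 3 lower, and without the first shBEX2-1 array 3 and 4. The number of all genes called also fell in these fits, from 2646 of 20464. It was 1346 and 1399 without a shControl array, 1245 and 1374 without a shBEX2-2 array, and 1534 without the first shBEX2-1 array. Of 13 arrest and DNA repair targets tested, POLH, a translesion polymerase, was higher (0.82, SE 0.17) and CDKN1A and XPC, a damage sensor of nucleotide excision repair (-0.63, SE 0.16), were lower. Of 14 apoptosis targets tested, 3 were higher, namely the decoy TRAIL receptor TNFRSF10C (1.03, SE 0.20), the apoptosome scaffold APAF1 (0.95, SE 0.26) and SIVA1 (0.79, SE 0.22), and the AKT repressor PHLDA3 was lower (-0.73, SE 0.18). Leaving out single arrays kept TNFRSF10C in all 8 cases, POLH in 4, XPC, APAF1 and PHLDA3 in 2 each and SIVA1 in 1.

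Of 14 metabolic and secreted targets tested, 4 were lower and 1 higher, which made 35.7% called, compared with 12.9% of all genes. The sestrin SESN2, a paralog of SESN1, fell most (-1.89, SE 0.14, limma adjusted p = 0.000621), and the carboxylesterase CES2 (-0.73, SE 0.14) and the AMP-kinase subunit PRKAB1 (-0.61, SE 0.13) were also lower. KITLG, the KIT ligand, was higher (0.88, SE 0.17). Against shControl alone 8 of the 41 further targets were called higher and 11 lower, and against shNontarget alone 0 and 1. The number of all genes called moved likewise. Of 20464 genes tested, 3512 were higher and 3328 lower against shControl alone, and 195 and 146 against shNontarget alone.

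Around the apoptosis members, 2 of 12 BCL2 family genes tested were lower and none higher, 16.7% compared with 12.9% of all genes called. They were the BH3-only gene BMF (-1.73, SE 0.28, limma adjusted p = 0.00571) and the anti-apoptotic MCL1 (-0.52, SE 0.14, adjusted p = 0.0414), which act in opposite directions. Leaving out single arrays kept BMF in all 8 cases and MCL1 in 2. With the mean of a gene's probes 1 BCL2 family gene was called higher. Of 11 death receptor ligands, adaptors and caspases tested, 2 were higher, CASP10 (1.18, SE 0.28) among them, and none was lower. This made 18.2% called. Without either shControl array or either shBEX2-2 array none of the 11 was called, and without either shBEX2-1 array 1 was. Over all 20464 genes tested, 1245 to 1399 were called without a shControl or shBEX2-2 array, and 1534 and 1703 without a shBEX2-1 array. On all 8 arrays 2646 were called. Of 10 paralogs of members tested, BTG3 was higher (1.11, SE 0.17) and SESN2 lower, which made 20% called.

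Lists of stress response and cell cycle genes were, like the other lists, chosen with earlier results of these data known. Their counts are therefore a description only. Of all genes tested, 12.9% were called. In the integrated stress response, which also acts on GDF15, TP53INP1, SESN2 and TNFRSF10B in many cells, 4 of 5 genes were lower, with a median of -1.26. They were DDIT3 (-1.68, SE 0.17), CHAC1 (-1.50, SE 0.38), TRIB3 (-1.26, SE 0.15) and ATF4 (-0.69, SE 0.19). Without either shControl array, the second shBEX2-1 array or either shBEX2-2 array 2 of the 5 were called. In these fits 1245 to 1703 of all 20464 genes were called, compared with 2646 on all 8 arrays. Over the 8 fits that left out 1 array, CHAC1 was kept in 3 and ATF4 in 2. DDIT3 and TRIB3 were kept in all 8. All 10 genes that p53 is known to lower through p21 and the DREAM complex were higher, with a median of 1.5, among them E2F1 (2.24, SE 0.24), CCNA2 (1.96, SE 0.24), CDC25A (1.66, SE 0.26) and CDC20 (1.62, SE 0.26). Against shNontarget alone 2 of the 5 stress genes and 2 of the 10 cell cycle genes were called, with medians of -1.27 and 1.14. In that fit 341 of all 20464 genes were called. Whether the stress or cell cycle genes have a part in the values of the 10 members was not tested.

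**Figure D3:**
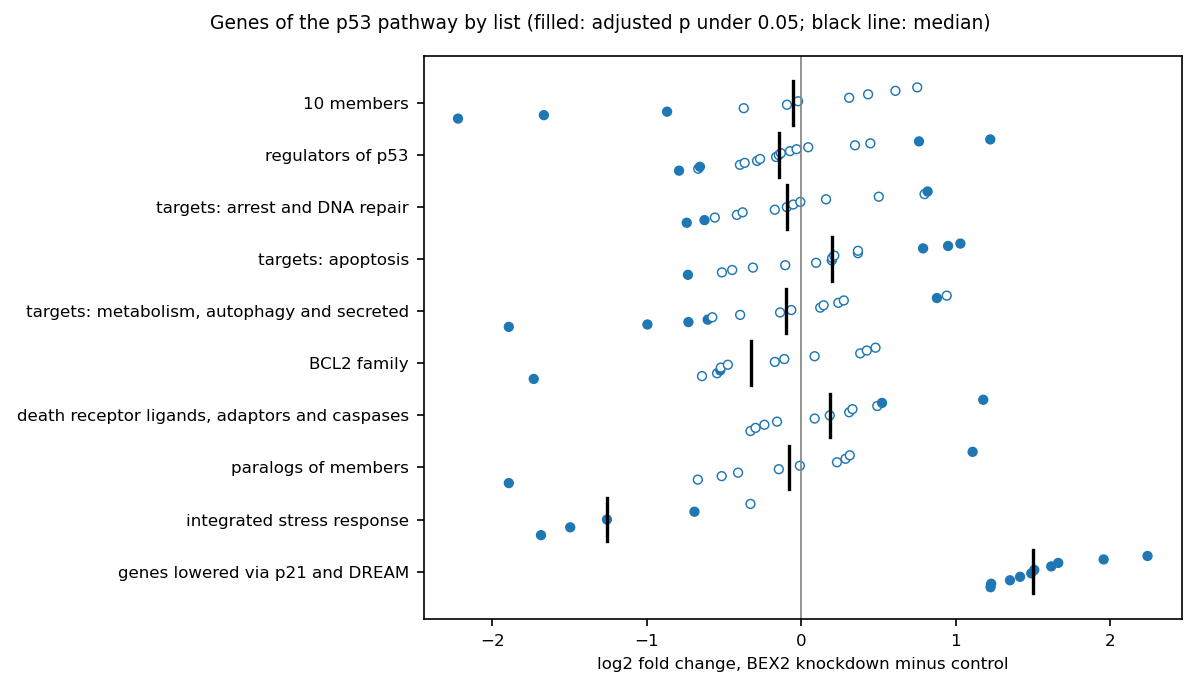
Log2 fold changes of single genes, knockdown minus control, for the 10 members and 9 other lists. Filled points have a limma adjusted p under 0.05 and black lines are list medians. The lists of p53 targets scatter around 0, 4 of 5 stress response genes are lower and 10 of 10 genes lowered through p21 and DREAM are higher.

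Over 22 alternative settings of the 4 against 4 comparison, 8 of which each left out 1 array, GDF15 was called in 22 and TP53INP1 in 21. BBC3 was called in 11, BTG2 in 5, FAS in 2, BAX in 1 and MDM2, TNFRSF10B and PPM1D in none. SESN1 was called in none of 21, since it was dropped when all 8 arrays had to be above background. GDF15 ranged from -2.58 to -1.86 and TP53INP1 from -1.94 to -0.94.

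**Figure D4:**
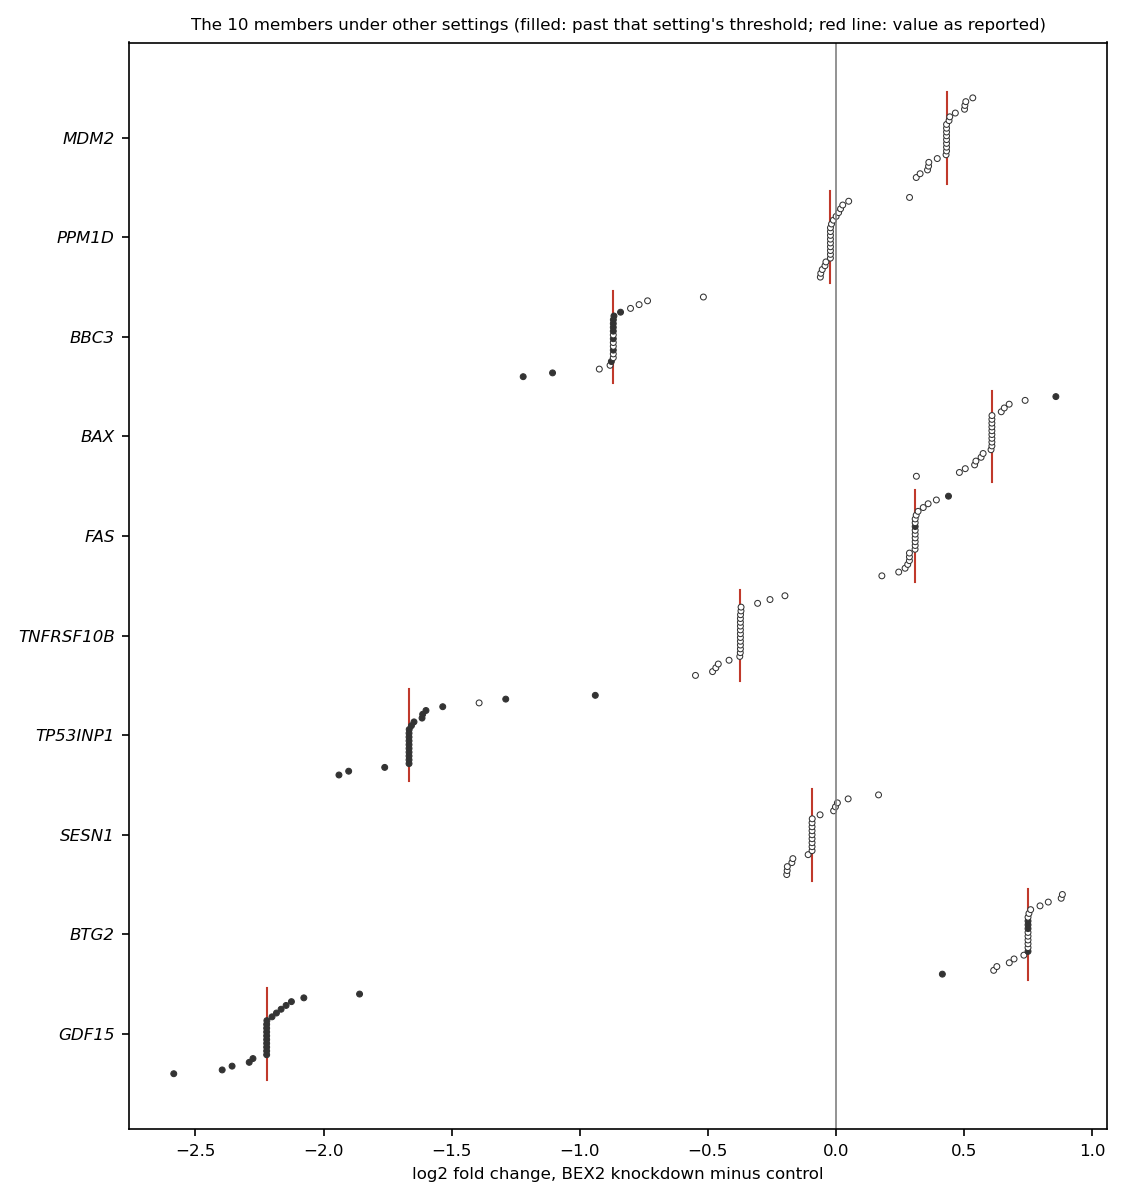
Log2 fold change of each member, knockdown minus control, under each of 22 alternative settings (21 for SESN1). Filled points passed the threshold of that setting and red lines mark the values reported above. GDF15 was filled throughout, BBC3 in 11 settings, and PPM1D and SESN1 lay on both sides of 0.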

How the data were processed

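The authors labelled RNA of HuCCT1 cells with Cy3 and hybridised it to Agilent arrays, and the deposited intensity values are those of Agilent Feature Extraction 10.7.3.1 (version per the submitters' processing notes), background-subtracted and detrended within each array and not scaled between arrays. The same intensities, within 0.497%, are in a series-wide table that was also deposited.

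Control spots were left out, and spots flagged as non-uniform (3 to 15 per array) were set to missing. Intensities were taken to log2 and the 75th percentile of each array (441 to 838) was subtracted. Repeated spots were averaged. A probe needed 4 or more arrays well above background to be kept, and each gene was represented by its brightest kept probe. Each array had 58717 non-control spots, of which 59.8% to 64.6% exceeded background clearly. The number of arrays limits the precision.

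Arms and vectors were compared with lmFit and eBayes of limma 3.58.1 (variance trend, Benjamini-Hochberg over all genes tested, threshold 0.05) in R 4.3.3, with statmod 1.5.0 for the random block. The code was tested on simulated data. Figures were drawn with matplotlib 3.10.9. Named genes are the members, BEX2, MDM4, CDKN1A and, of each other list, up to 4 called genes with the largest change. Some results under this rule are not reported here. The members and lists were chosen with earlier results of these data known. Beyond these, RCHY1 and PRKAB1 were named after their values were seen. Pairing by replicate number rests on the days in the names of the scanner files, 1 day for each number. Replicate differences of pairs of vectors correlated across genes at r between -0.063 and 0.26. Alternatives were quantile normalization, normexp with an offset of 50, the deposited table, no or a stricter filter on dimness, averaging the probes of each gene, the replicate block, the vector as a random block, each control vector alone, no variance trend, the methods' t-test, rank product (16 array pairs, 100 permutations) and each array left out.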

Additional observations from a re-analysis of the deposited data

Results flagged for a closer look

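PPM1D had 1 array apart from the others of its arm. On the knockdown arrays its levels were -1.61 for the first shBEX2-1 array and between -1.34 and -1.30 for the other 3, so that the gap below them was 0.862 of the whole range, above Dixon's critical value for 4 samples. The member groups tested in this way numbered 20, of which 1 was so marked, and chance marks about 1 in 20. Without that array the log2 fold change of PPM1D was 0.05 in place of -0.02, and neither was called.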

How the results depend on the processing

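The values of GDF15 kept their direction and their call under all 22 alternatives of the 4 against 4 comparison, and those of TP53INP1 under all but the one with only the shNontarget arrays as control. Over all genes, 2646 were called (1366 higher, 1280 lower). The count was 6840 with only the shControl arrays as control, 341 with only the shNontarget arrays, 856 by rank product and 5423 by the methods' t-test at an unadjusted P under 0.05 (2175 after Benjamini-Hochberg), and members called were 1 with only the shNontarget arrays and 5 by that unadjusted test. Normexp background correction gave 1781 higher and 1035 lower and raised the shBEX2-1 count from 1426 to 2415.

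Between the sublines the 2 calls became 17 with quantile normalization, 6 with the mean of a gene's probes, and 0 with normexp, with no filter on dim probes, with all 8 arrays above background, without the variance trend and with the replicate block. The replicate block also lowered the F-test count from 1384 to 722. It gave 2458 genes and 3 members in the 4 against 4 comparison. Outside the F-test, for which members were not followed under this setting, it ended no call of a member other than BTG2 in shBEX2-2.

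Leaving out 1 array at a time gave 1245 to 4722 genes and 2 to 4 members in the 4 against 4 comparison, 0 to 10821 genes in shBEX2-1, 0 to 11151 in shBEX2-2, 0 to 9462 between the controls, 0 to 3016 between the sublines and 0 to 14779 by the F-test. The high counts came without an shNontarget array.

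Other settings turned the sign of some values that were not called. In the 4 against 4 comparison SESN1 was 0.17 with normexp and 0.0058 with only the shControl arrays, and PPM1D 0.011 with quantile normalization, 0.027 with normexp, 0.29 with the mean of its probes and 0.018 with only the shNontarget arrays. In shBEX2-1, SESN1 was 0.22 and PPM1D 0.0078 with normexp, and PPM1D 0.24 with the mean of its probes. Between the controls, the mean of probes gave 0.018 for MDM2 and 0.027 for BAX, and TNFRSF10B was 0.013 with quantile normalization and 0.0016 with normexp. Between the sublines, the mean of probes gave 0.13 for BAX and 0.15 for TP53INP1, and normexp gave -0.11 for SESN1 and -0.0017 for BTG2.

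Leaving out 1 array at a time also turned signs. In the 4 against 4 comparison SESN1 ranged from -0.19 to 0.048, PPM1D from -0.059 to 0.050 and MDM4 from -0.36 to 0.14. PPM1D in shBEX2-1 ranged from -0.23 to 0.043 and TNFRSF10B in shBEX2-2 from -0.36 to 0.16. Between the controls MDM2 ranged from -0.42 to 0.14, BAX from -0.95 to 0.68, SESN1 from -0.13 to 0.52 and TNFRSF10B from -0.53 to 0.52, which was called without the first shNontarget array (adjusted p = 0.00316 in limma). Between the sublines BBC3 ranged from -0.22 to 0.14 and BAX from -0.43 to 0.27.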
